A study of Mus musculus with 2 samples.

Results

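Bidirectional promoters are short stretches of DNA from which 2 genes are transcribed outward on opposite strands. Here a bidirectional promoter was a pair of protein-coding genes on opposite strands whose 5′ gene ends diverge, with the starts at most 1 kb apart in the GENCODE M21 gene records. The region read for peaks was the span between the starts plus 1 kb on each side. The mouse annotation held 754 such pairs. They take in 1487 of 21938 protein-coding genes (6.78%) and lie at 732 separate loci, because 21 genes belong to more than 1 pair. There were 20 pairs on the X chromosome and 0 on the Y chromosome. The median distance between starts was 129.5 bp, the quartiles were 67 and 240 bp, and the full range was 1 to 987 bp. In 618 pairs (82%) the starts were at most 300 bp apart.

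The data were H3K4me3 ChIP-seq peak lists from bone marrow-derived macrophages of strain C57BL/6J that received no stimulus, in 2 biological replicates. There was 1 group, with no other genotype, treatment or time point. Each library was made from 10 ng of DNA, and the labels give the age as unknown and the sex as not collected. Both replicates carry the same donor entry, so the spread between them may be technical, and a macrophage grown from marrow in culture is a model of tissue macrophages only in part. The lists held 20031 peaks in replicate 1 and 16376 in replicate 2. No read counts were used, so the depth behind a peak is unknown. The labelled cell type was read from promoters of marker genes. Peaks of both replicates lay at 10 of 11 macrophage markers, Adgre1, Cd68, Itgam, Lyz2, Mertk and Spi1 among them, but not at the annotated 5′ gene end of Csf1r, and at 0 of 13 markers of T cells, B cells, neutrophils and fibroblasts. They also lay at 2 of 3 erythroid markers.

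H3K4me3 is trimethylation of lysine 4 of histone H3, a mark of the nucleosomes that flank active or poised transcription start sites. At an active promoter the start itself is commonly kept free of nucleosomes, and the mark is typically stronger on the transcribed side. Head-to-head genes share 1 such nucleosome-free stretch, and these promoters are mostly CpG islands that serve housekeeping genes, with DNA repair and mitochondrial genes known to be common among them.

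The spans of 10 pairs are shown because the values below turn on them. Each is the DNA from the start of the minus-strand gene, named first, to the start of the plus-strand gene, on the plus strand of GRCm38. By the gene records, each lies between the genes and holds no exon or intron of either member beyond the start base at each end. Hadha and Hadhb (chr5:30155162-30155248) and Sec24a and Sar1b (chr11:51763634-51763687) are among the 5 pairs of highest mean fold percentile. The fold of a pair is that of the strongest peak in its region, not of the span itself. Polh and Xpo5 (chr17:46202645-46202782) and Usp5 and Cdca3 (chr6:124829484-124829547) hold the NRF1 motif. Mrps12 and Sars2 (chr7:28741820-28741992) hold 4 CCAAT boxes, and Nr1h3 and Acp2 (chr2:91202834-91202885) are the pair with a member in the macrophage list. Polr3a and Rps24 (chr14:24487058-24487125) have one of the most lopsided domains. Ifit1bl2 and Ifit1 (chr19:34640743-34640871) are interferon-induced, Hist2h2ac and Hist2h2be (chr3:96220880-96221119) are histone genes, and Col4a4 and Col4a3 (chr1:82586849-82586921) had no peak. Capitals mark letters that match a searched motif on either strand.
Hadha/Hadhb: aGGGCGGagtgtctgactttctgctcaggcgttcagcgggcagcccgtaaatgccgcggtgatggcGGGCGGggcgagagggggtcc
Sec24a/Sar1b: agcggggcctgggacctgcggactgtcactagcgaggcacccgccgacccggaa
Polh/Xpo5: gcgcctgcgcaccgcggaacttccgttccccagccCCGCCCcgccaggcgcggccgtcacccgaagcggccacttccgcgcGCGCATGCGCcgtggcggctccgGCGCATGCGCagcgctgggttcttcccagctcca
Usp5/Cdca3: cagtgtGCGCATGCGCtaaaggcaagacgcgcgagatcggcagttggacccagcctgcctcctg
Mrps12/Sars2: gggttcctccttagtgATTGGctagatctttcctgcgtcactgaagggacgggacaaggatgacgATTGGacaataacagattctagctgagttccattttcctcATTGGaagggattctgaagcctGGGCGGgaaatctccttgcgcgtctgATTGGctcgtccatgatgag
Nr1h3/Acp2: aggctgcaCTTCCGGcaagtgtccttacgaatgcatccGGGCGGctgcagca
Polr3a/Rps24: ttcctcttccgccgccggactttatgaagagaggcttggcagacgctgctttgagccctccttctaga
Ifit1bl2/Ifit1: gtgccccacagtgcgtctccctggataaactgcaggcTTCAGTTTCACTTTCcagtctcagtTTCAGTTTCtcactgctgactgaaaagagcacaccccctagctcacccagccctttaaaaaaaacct
Hist2h2ac/Hist2h2be: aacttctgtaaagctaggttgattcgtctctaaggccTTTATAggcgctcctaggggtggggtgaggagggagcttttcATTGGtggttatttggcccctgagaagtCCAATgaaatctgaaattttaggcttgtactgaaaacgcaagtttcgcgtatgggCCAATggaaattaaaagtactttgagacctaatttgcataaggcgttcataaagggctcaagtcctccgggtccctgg
Col4a4/Col4a3: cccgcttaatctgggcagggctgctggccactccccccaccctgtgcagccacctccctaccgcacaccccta

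Motifs were searched on both strands. The housekeeping motifs were GCGCATGCG for the nuclear respiratory factor NRF1, AAGATGGC for YY1 and TGACGTCA, the cAMP response element. The ETS motif was read as CCGGAAG, the core bound by GABPA and its relatives. The GC box, bound by SP and KLF factors, was read as GGGCGG. NF-Y binds the CCAAT box. The TATA box was read as TATAAA and the E-box, bound by MYC, USF and TFE factors, as CACGTG. Motifs of macrophage and immune factors were GAGGAAGT for PU.1, TGANTCA for AP-1 and GAAANNGAA for the interferon-stimulated response element (ISRE). The last can overlap itself, and NRF1 sites that read GCGCATGCGC match on both strands and were merged. By this count the Polh and Xpo5 span held 2 NRF1 sites, the Usp5 and Cdca3 span 1, the Hadha and Hadhb span 2 GC boxes, and the Nr1h3 and Acp2 span 1 ETS site and 1 GC box. The Hist2h2ac and Hist2h2be span held 3 CCAAT boxes and 1 TATA box, and the Ifit1bl2 and Ifit1 span 2 ISRE stretches and no other motif. None of the 11 motifs was in the spans of Sec24a and Sar1b, Polr3a and Rps24, or Col4a4 and Col4a3. The span of Col4a4 and Col4a3 was 68.5% G or C but held 2 CG dinucleotides in 73 bases, against 9 in 87 bases between Hadha and Hadhb.

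For the whole set, the motifs were counted in a window of 300 bp centred on the midpoint of each pair, or on the start of a single-gene promoter. A single-gene promoter was a protein-coding gene with no other protein-coding 5′ end within 5 kb (17682 genes), read from 1 kb before to 1 kb after its start. The ETS motif was in 28% of pairs and 9.71% of single-gene promoters. The YY1 motif was in 8.49% and 2.94%, the NRF1 motif in 4.64% and 1.82%, and CCAAT in 44.8% and 36.5%. The TATA box was rarer at pairs, 4.38% against 11.5%, as was AP-1, 3.45% against 6.32%. PU.1, the lineage factor of macrophages, had its motif in 2.52% of pairs and 3.18% of single-gene promoters. Pairs are richer in CpG, so the shares were also read in the tertile of all coding promoters with the highest CpG ratio (observed over expected CpG above 0.604). There the ETS motif was in 28.7% of 519 pairs and 15.7% of 5278 single-gene promoters, and CCAAT in 46.1% and 32.2%. The GC box changed order: 68% against 43.5% over all promoters, but 73% against 77.3% in the CpG-rich class. So did PU.1, with 3.08% of pairs and 1.97% of single-gene promoters in that class, and AP-1, with 2.89% and 2.52%, while the TATA box kept its order (3.47% and 4.49%). The plot of motif shares gives pairs and single-gene promoters of the CpG-rich class only. A match is a run of letters and not a measured site.

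**Figure D1:**
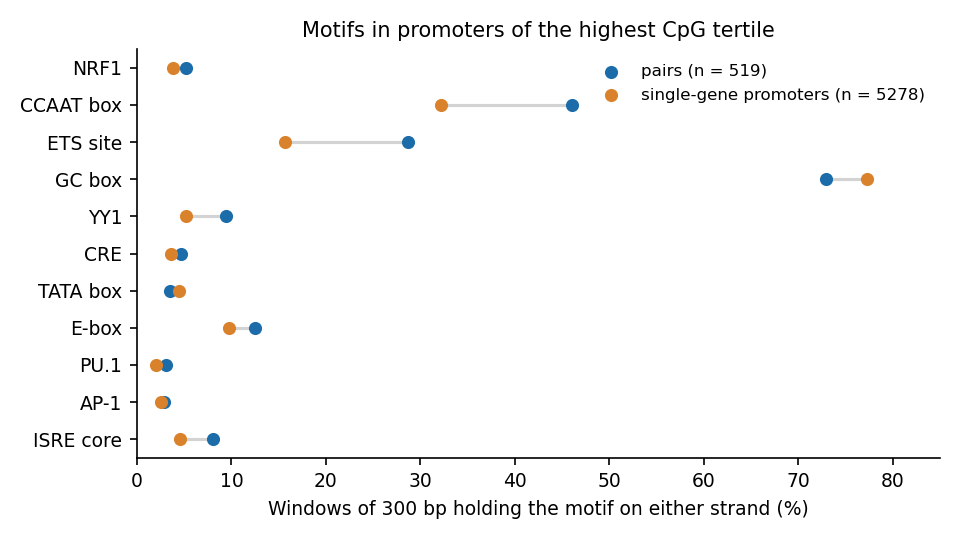
Percent of 300 bp windows holding each of 11 motifs on either strand, for 519 head-to-head pairs (blue) and 5278 single-gene promoters (orange) of the highest CpG tertile. The widest gaps are at the CCAAT box (46.1% of pairs, 32.2% of single-gene promoters) and the ETS site (28.7%, 15.7%), while the GC box lies the other way (73%, 77.3%).

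A pair counted as marked where the lists of replicate 1 and of replicate 2 each had a peak within its region, by an overlap of at least 1 bp. Marked pairs numbered 688 of 754, or 91.2%, against a background of 39.9% of single-gene promoters (7047 of 17682) and 46.1% of all protein-coding 5′ ends (10114 of 21938). Divergent pairs with starts 1 to 5 kb apart were marked in 69.9% of cases (288 of 412), and pairs whose 5′ ends overlap in 88.4% (404 of 457). Replicate 1 had a peak at 704 pairs (93.4%) and replicate 2 at 688 (91.2%), a mean of 92.3% ± 1.5 (SD, n = 2). For single-gene promoters the mean was 41.9% ± 2.88 (SD, n = 2), so the gap is many times the spread between replicates. The authors' replicated list had a peak at 694 pairs (92%). A peak in replicate 1 alone was seen at 16 pairs, in replicate 2 alone at 0 pairs, and in neither at 50. With the flank beyond the starts dropped, 71.1% of pairs and 19.2% of single-gene promoters were marked.

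CpG content differs between these sets and moves with marking. Of the pairs, 68.8% were in the highest CpG tertile, compared with 29.8% of single-gene promoters. In that tertile 499 of 519 pairs (96.1%, 95% Wilson interval 94.1 to 97.5) and 73.9% of single-gene promoters were marked. In the middle tertile the shares were 86.5% (186 of 215 pairs) and 47.9%. In the lowest, 3 of 20 pairs (15%, interval 5.24 to 36) and 5.58% of single-gene promoters were marked. The intervals cover counting error only and treat promoters as independent. Pairs thus stood above single-gene promoters in the high and middle tertiles, while the lowest held too few pairs to tell. The starts of a pair share much of their windows: read with its own window of 1 kb on each side, both genes were marked in 684 pairs (90.7%), 1 gene only in 4, and neither in 66. At pairs 1 to 5 kb apart, both genes were marked in 150 of 412 (36.4%) and 1 gene only in 138 (33.5%).

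Domains over marked pairs were wider than those over marked single-gene promoters. A domain was formed by joining peaks at most 1 kb apart, and the widest domain touching the region was measured. The median width at the 688 pairs was 2511 bp in replicate 1 and 2167 bp in replicate 2, against 2015 and 1596 bp at 7047 single-gene promoters. The lower median of the pairs is thus above the higher one of the single-gene promoters. Averaged over replicates, the median was 2353 bp for pairs (interquartile range 2011.4 to 2831.6 bp) and 1804 bp for single-gene promoters (1338.2 to 2395.8 bp), so single domains of the sets overlapped widely although their medians were 549 bp apart. In the highest CpG tertile the difference of medians was 428 bp. The domain of a pair takes in the stretch between its starts, and with that distance subtracted the median at pairs was 2201 bp. Marked pairs whose 5′ ends overlap had a median width of 2318.5 bp. Without joining, the strongest peak had a median width of 2089.5 bp in replicate 1 and 1429 bp in replicate 2 at pairs, and 1552 and 1139 bp at single-gene promoters. Widths of the pairs in the replicates correlated with a Pearson r of 0.852 (Spearman rho 0.873, n = 688 pairs from the same libraries).

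The fold of a peak is the authors' own enrichment value and was compared only within a list. The strongest peak at a marked pair had a median fold of 46.7 in replicate 1 and 18.8 in replicate 2, against 36.6 and 13.8 at single-gene promoters. As a percentile of all peaks of its own list, the median was 87.4 in replicate 1 and 85.2 in replicate 2 for pairs, and 72.2 and 64.9 for single-gene promoters. Again the lower value of the pairs is above the higher value of the single-gene promoters. High percentiles were not particular to these pairs. The medians were 85.6 and 80.7 at marked pairs whose 5′ ends overlap, and 80.3 and 75.4 at marked pairs 1 to 5 kb apart. The percentile had little relation to the CpG ratio among marked pairs (Pearson r 0.047, Spearman rho −0.014, n = 688 pairs, which share the libraries).

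Domains over pairs were also more even than those over single-gene promoters, which have no other protein-coding 5′ end within 5 kb. For each domain the extent on either side of the midpoint (or, at a single-gene promoter, of the start) was taken, and the absolute asymmetry is the difference of both extents over their sum, from 0 for an even domain to 1 for a domain wholly on one side. The median asymmetry was 0.164 in replicate 1 and 0.167 in replicate 2 at pairs, against 0.426 and 0.554 at single-gene promoters. It reached 0.5 in 10.6% and 14% of pairs and in 41.1% and 53.4% of single-gene promoters. Marked pairs whose 5′ ends overlap had a median asymmetry of 0.198 and 0.217, while marked pairs 1 to 5 kb apart had 1 in both replicates. At single-gene promoters 92.5% of domains in replicate 1 reached farther downstream than upstream. The longer side of a pair was the plus-strand gene in 350 of 688 pairs (50.9%). Strand is an arbitrary order for a pair, so that share cannot show whether single domains are even. The asymmetry values rest on joining peaks. Without joining, the median at pairs was 0.29 in replicate 1 and 0.957 in replicate 2 (0.552 for the mean of both). At single-gene promoters it was 0.871 and 1 (0.904). A pair with a peak on each side of an uncovered midpoint then counts as one-sided. Such pairs were 19% of marked pairs in replicate 1 and 30.7% in replicate 2. Their part in the rise was not tested.

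**Figure D2:**
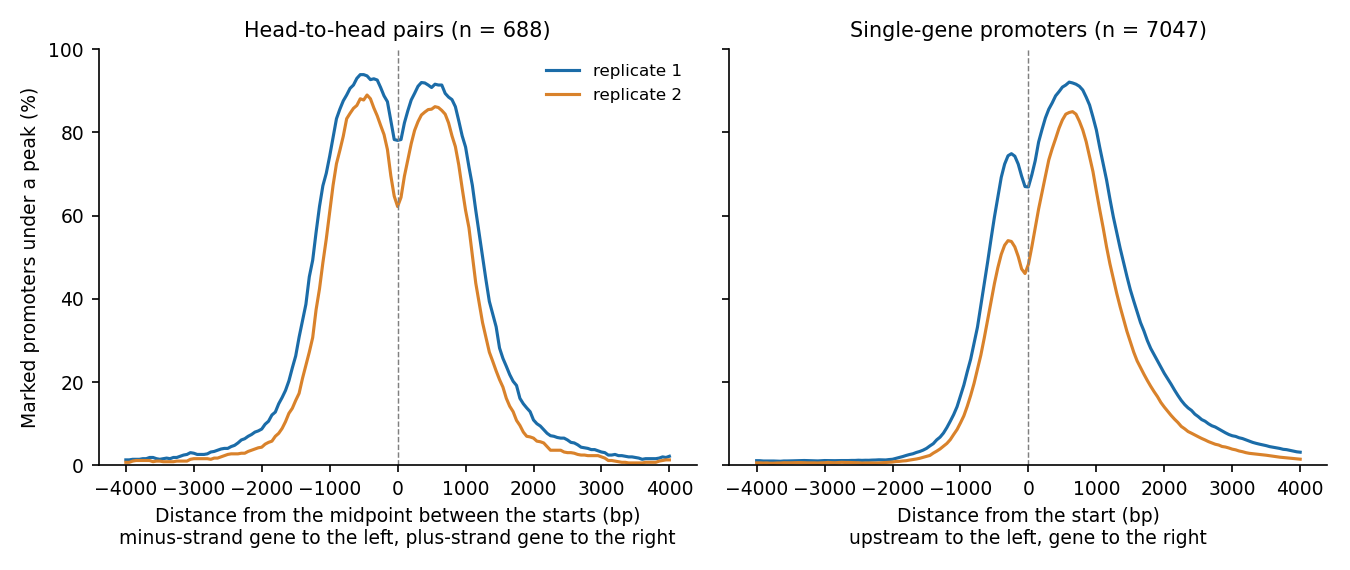
Percent of 688 marked pairs (left) and 7047 marked single-gene promoters (right) under a peak at each distance in bp from the midpoint or the start, in replicate 1 (blue) and replicate 2 (orange). Pairs have near-equal shoulders 500 bp to either side (93.9% and 90.8% in replicate 1) around a dip at the centre (78.1%), while single-gene promoters are covered mainly downstream. Pairs are aligned by strand, an arbitrary order, so equal shoulders do not show that single domains are even.

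The plot of coverage by distance gives the shape over all marked promoters. Pairs are aligned by strand, an arbitrary order, so equal sides in this plot do not show that single domains are even. In replicate 1 a peak covered the midpoint of 78.1% of pairs, the point 500 bp away toward the minus-strand gene in 93.9% and the point 500 bp away toward the plus-strand gene in 90.8%. In replicate 2 the values were 62.2%, 87.8% and 85.6%. Both replicates therefore dip at the centre, and the dip was deeper in replicate 2. The shares at 500 bp also mean that most pairs were covered on both sides there. At single-gene promoters in replicate 1, coverage was 59.7% at 500 bp upstream, 66.9% at the start and 90.9% at 500 bp downstream. At 1000 bp it was 16.7% upstream and 80.6% downstream, against 74.3% and 76.5% on the sides of pairs.

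Reach, the extent of a domain past a gene's own start into that gene, shows how each side compares with an ordinary gene. The median reach at pairs was 1173.5 bp in replicate 1 and 1018 bp in replicate 2. At single-gene promoters the domain reached 1393 and 1191 bp downstream, and 593 and 431 bp upstream. Each side of a pair was thus closer to the downstream than to the upstream side of a single-gene promoter, and shorter than it in both replicates. In the highest CpG tertile the order was the same, with medians over replicates of 1141 bp at pairs, 1417 bp downstream and 634.75 bp upstream. Reach into the minus-strand gene had a median of 1090 bp and reach into the plus-strand gene 1094.8 bp. The reaches of a pair had almost no correlation with each other (Pearson r −0.00798, Spearman rho −0.0143, n = 688 pairs). The same held for upstream and downstream reach at single-gene promoters (Pearson r 0.0348, Spearman rho 0.0243, n = 7047). As read in the plot of reach, most pairs form a cloud near 1 kb on both axes, with arms along each axis rather than along the diagonal.

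**Figure D3:**
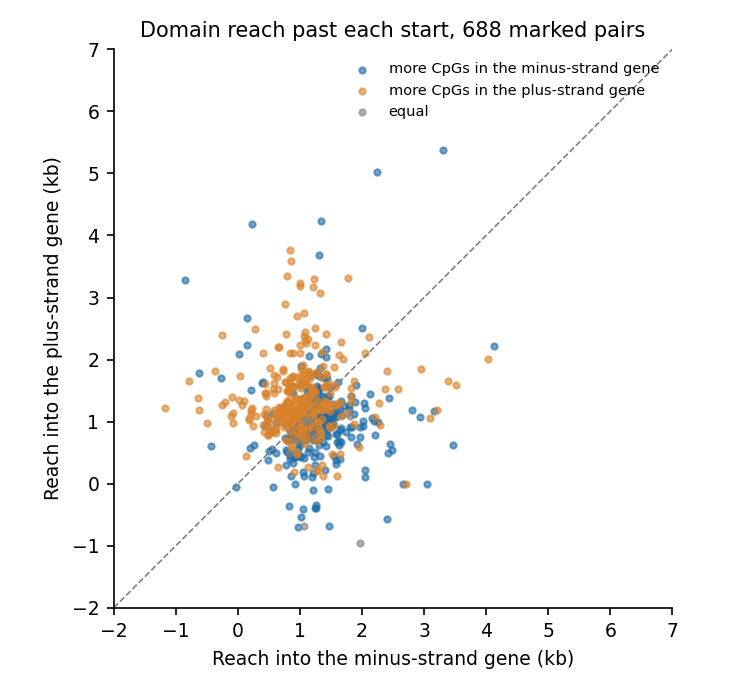
Reach of the joined domain past the start of the minus-strand gene (x axis, kb) and of the plus-strand gene (y axis, kb) at 688 marked pairs, as the mean of 2 replicates. Points are coloured by which gene has more CpGs in its first 1 kb, and the dashed line marks equal reach. Orange points lie mostly above the line and blue points mostly below it.

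The longer side was mostly the same in the replicates. The same side was longer in both replicates in 611 of 687 pairs (88.9%), and the signed asymmetry in the replicates had a Pearson r of 0.837 (Spearman rho 0.921, n = 688 pairs). The longer side was the gene with more CpGs in its first 1 kb in 436 of 603 pairs (72.3%), and in 143 of 177 (80.8%) where the asymmetry was at least 0.3. It had the farther alternative start within 5 kb in 340 of 580 pairs (58.6%), and in 111 of 165 (67.3%) at an asymmetry of at least 0.3. It had the longer first exon in 349 of 610 pairs (57.2%), and in 96 of 179 (53.6%) at that asymmetry. It was the longer gene in 301 of 611 (49.3%), which is an even split. The difference in CpGs and the difference in reach had a Pearson r of 0.439 (Spearman rho 0.507, n = 688). The part of CpG content and of alternative starts in the asymmetry was not tested.

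Summits, the highest point of the strongest peak, seldom lay between the starts: 8 of 688 (1.16%) in replicate 1 and 7 (1.02%) in replicate 2. They lay in the minus-strand gene in 337 pairs and in the plus-strand gene in 343 in replicate 1, at a median of 385.5 bp into the gene. Where both summits lay in a gene, it was the same gene in 628 of 680 pairs (92.4%). The gene with the summit was also the longer side in 388 of 563 pairs (68.9%). At single-gene promoters the summit lay at a median of 470 bp downstream of the start in replicate 1.

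A single peak often bridged both starts. In replicate 1, 464 of 688 marked pairs (67.4%) had both starts under 1 peak, and in replicate 2 334 (48.5%). In both replicates it was 333 (48.4%), while of the 704 pairs with a peak in replicate 1, whatever replicate 2 showed, it was 469 (66.6%) in that list. In 61 pairs the same single start was covered in both replicates, and in 0 pairs a different one. Neither start was covered, with peaks only beside them, in 66 pairs (9.59%) in replicate 1 and 155 (22.5%) in replicate 2. For comparison, the start of a marked single-gene promoter was under a peak in 66.9% of cases in replicate 1 and 48.3% in replicate 2. Cover of the starts thus differed between the replicates, and replicate 2 is also the list with fewer peaks. Whether depth sets this difference was not tested.

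A gap at the midpoint with a peak on each side was seen in 131 pairs (19%) in replicate 1 and 211 (30.7%) in replicate 2, and in 114 pairs in both. The uncovered gap had a median of 257 bp in replicate 1 and 324 bp in replicate 2, against a median distance between the starts of 144 and 137 bp in the same pairs. It held both starts in 50 and 110 pairs. The stronger of both peaks exceeded the weaker by a median of 1.5-fold in replicate 1 and 1.47-fold in replicate 2, and its side was the same in 109 of the 114 pairs (95.6%). Polr3c and Rnf115, a subunit of RNA polymerase III and a ubiquitin ligase, start 36 bp apart, and neither start was under a peak in either replicate although the joined domain was 3042 and 2904 bp wide.

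Cover of the starts differed between classes of distance more than the reach of the domain did. At 1 to 50 bp, 127 of 128 pairs were marked (99.2%), and 1 peak covered both starts in 85% of the marked ones in replicate 1 and 66.1% in replicate 2. At 201 to 300 bp these shares were 51.7% and 36%, and at 501 to 1000 bp 55.8% and 25%. Marking was lowest in the last class, 52 of 70 pairs (74.3%). The median reach stayed between 1054.25 and 1132.75 bp in all 7 distance classes. Distance and width were weakly correlated (Pearson r 0.138, Spearman rho 0.179, n = 688), as the plot by distance shows. Pairs 1001 to 2000 bp apart had both starts under 1 peak in 8.33% and 1.39% of marked cases.

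**Figure D4:**
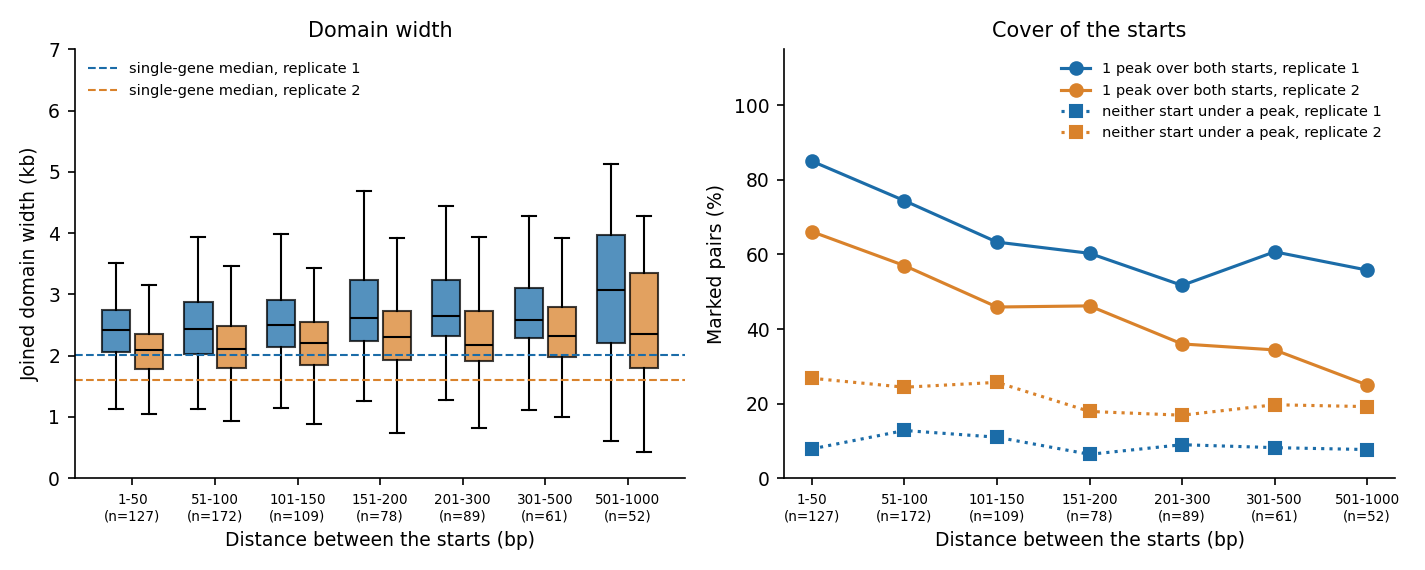
Left, joined domain width (kb) of marked pairs by distance between the starts (bp), with boxes from the lower to the upper quartile, a line at the median, whiskers to 1.5 times the box (outlying points not drawn) and dashed lines at the single-gene medians of 2015 and 1596 bp. Right, percent of marked pairs with 1 peak over both starts or with neither start under a peak. Cover by 1 peak was 85% and 66.1% at 1 to 50 bp and 55.8% and 25% at 501 to 1000 bp.

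Single pairs give these ranges a face. The pairs with the highest mean fold percentile were Hadha and Hadhb, Usmg5 and Pdcd11, Atp6v1a and Naa50, Sec24a and Sar1b, and Nubp2 and Spsb3. Hadha and Hadhb encode both subunits of the mitochondrial trifunctional protein of fatty acid oxidation. Their fold was 69.13 in replicate 1 and 30.93 in replicate 2, and the domain was 2965 and 2633 bp wide with both starts under 1 peak. Sec24a and Sar1b encode parts of the COPII coat that carries cargo from the endoplasmic reticulum. Their fold was 65.58 and 32.5, but the domain was narrow, 1921 and 1613 bp. Usmg5, a membrane subunit of ATP synthase, shares its promoter with the rRNA processing gene Pdcd11, and the fold there was 67.82 and 30.93. Among these pairs, domains ran from narrow, at Sec24a and Sar1b, to wide, at Atp6v1a and Naa50.

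The widest domain was that of Zfp91, a ubiquitin ligase, and Lpxn, a paxillin relative of blood cells, at 9204 and 8278 bp, and it reached 5738 and 5000 bp into Lpxn. Top3a, a topoisomerase, and Smcr8, an autophagy regulator, followed with 8440 and 6420 bp. Srgap2 and Fam72a had 7348 and 6448 bp, and Atp6v1a and Naa50 had 6668 and 5657 bp. At Atp6v1a, the catalytic subunit of the lysosomal proton pump, the domain reached 4200 and 3853 bp into the gene, and the start of Atp6v1a was covered in both replicates while that of Naa50 was not. These wide domains thus reached unequally into their genes, and of these 4 pairs only Atp6v1a and Naa50 was also among the 5 of highest fold percentile.

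The most lopsided domains that covered both starts stopped just inside one gene. At Surf4, a cargo receptor of the secretory pathway, and Stkld1 the domain reached 2187 and 1901 bp into Surf4 but 143 and 62 bp into Stkld1, an asymmetry of 0.835 and 0.883. At Dpm1 and Mocs3 it reached 1689 and 1495 bp into Dpm1, which makes the mannose donor for glycosylation, and 133 and 105 bp into the molybdenum cofactor gene Mocs3. At Polr3a, the largest subunit of RNA polymerase III, and Rps24, a ribosomal protein, it reached 1304 and 1125 bp against 195 and 135 bp. The short side was thus that of the ribosomal protein gene. Gm20716 and Mocs3 share the domain of Dpm1 and Mocs3. At a pair named from the gene lists, the domain of Cdc40, a splicing factor, and Wasf1, an actin regulator, reached 1391 and 1334 bp into Cdc40 and 307 and 286 bp into Wasf1.

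**Figure D5:**
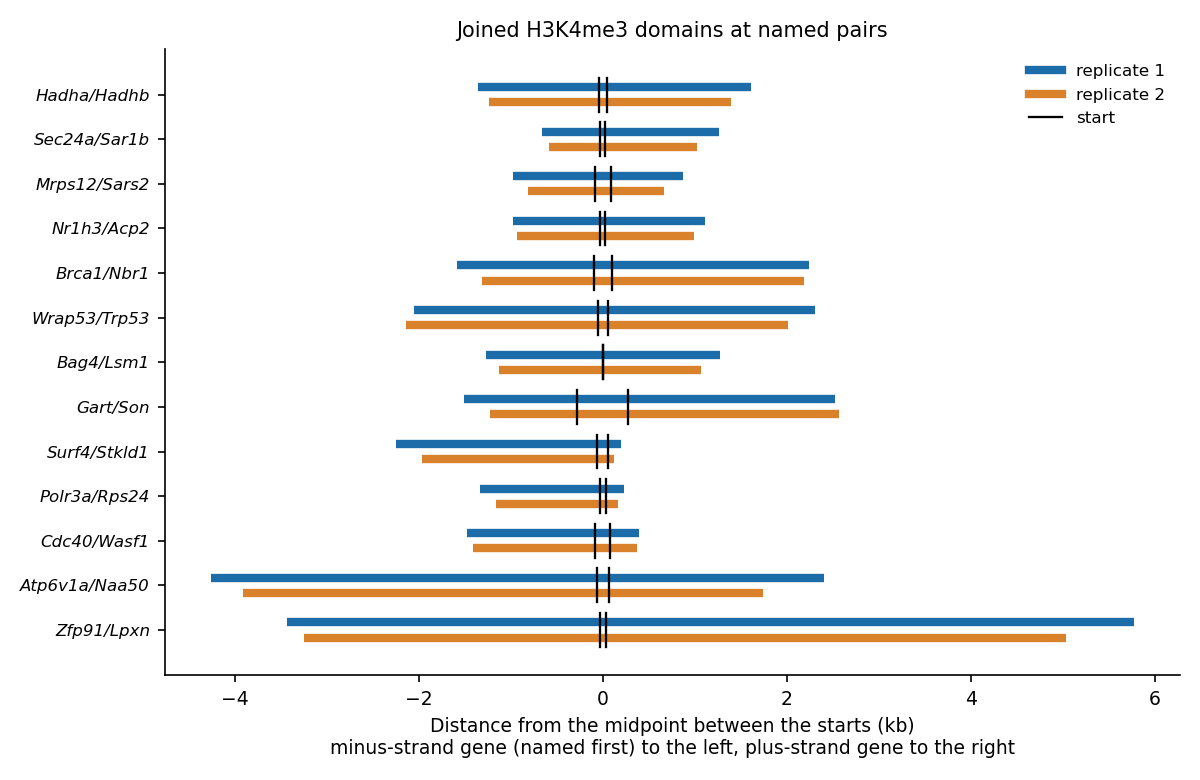
Extent in kb of the joined H3K4me3 domain around the midpoint of 13 named pairs in replicate 1 (blue) and replicate 2 (orange), with black ticks at the starts and the minus-strand gene, named first, to the left. Domains run from near-even (Bag4 and Lsm1) through one-sided (Surf4 and Stkld1) to wide (Zfp91 and Lpxn, 9204 and 8278 bp).

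The pairs with the closest starts, Bag4 and Lsm1 and Slc7a6os and Prmt7, start 1 bp apart. Their domains were 2538 and 2194 bp, and 2526 and 2165 bp, with an asymmetry of 0.059 or less. In replicate 1 a single peak covered both starts of each pair, and in replicate 2 neither start was covered. At the other end, Zfyve26 and Rad51b (978 bp apart) had both starts under 1 peak in both replicates, in a domain of 3959 and 3321 bp. Btf3l4 and Txndc12 (987 bp apart) had a peak over the Txndc12 start only. Cover thus differed between the replicates at the closest starts and between the pairs at the farthest. Whether distance sets the cover was not tested. Setd3 and Ccnk, and Npc2 and Isca2, are pairs of high fold with the plus-strand start alone under a peak in both replicates. Ccnk encodes a cyclin that drives transcription elongation, and the fold there was 65.02 and 27.8.

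Of 26 gene pairs listed as known from earlier work, 7 met the rule in this annotation. Of these, 6 were marked, against 91.2% of all pairs, and Col4a4 and Col4a3 were not. The promoter of Trp53, the p53 gene, and Wrap53, which encodes a telomerase and Cajal body protein, had a fold of 59.22 and 22.76 and a wide, even domain of 4356 and 4158 bp. Brca1, a homologous recombination gene, and Nbr1, an autophagy receptor, had 3830 and 3512 bp. Mrps12 and Sars2, both of mitochondrial translation, had a narrow domain of 1849 and 1474 bp with a fold of 57.92 and 24.8. Atm, the kinase of the double-strand break response, and Npat, the activator of histone genes, had separate peaks on the starts in a domain of 3147 and 3036 bp. Gart and Son also had a peak each (4028 and 3799 bp), while Mcm4 and Prkdc shared 1 (2558 and 2416 bp). The known pairs thus span both modes of cover.

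Gene groups were read from symbol lists, which overlap and were built with earlier results of these data known. Of 157 DNA repair and replication genes 42 (26.8%) lie in a pair, against 6.78% of all coding genes, and all 44 of their pairs were marked (91.2% of all pairs were). Their median width was 2434.75 bp. Oxidative phosphorylation had 26 of 120 genes in pairs (21.7%), and all 26 pairs were marked at a median fold percentile of 92, against 85.9 over all pairs. Sdhd, a subunit of succinate dehydrogenase, paired with the import gene Timm8b, had a fold of 58.1 and 23.89. Mitochondrial ribosome and translation genes had 21 of 109 in pairs with all 20 pairs marked. All 27 pairs of cytosolic ribosome and ribosome biogenesis genes, all 23 of splicing genes, all 11 of tRNA genes, all 8 of cilium genes and all 5 of mitochondrial import genes were marked. Cell cycle genes had 38 of 39 marked, with the meiotic cohesin gene Smc1b the exception. Proteasome and ubiquitin genes had 13 of 14, vesicle transport 23 of 24 and zinc finger (Zfp) genes 20 of 23. The 5 lysosome pairs had the widest median of these lists, 4100.5 bp, and a median percentile of 97.1. Most housekeeping lists were thus marked throughout, near the 91.2% of all pairs.

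Fewer of the listed immune genes than of all coding genes (6.78%) lay in such pairs. Of 430 innate immunity symbols 11 (2.56%) did, and of 64 macrophage genes 1 (1.56%), Nr1h3, the oxysterol receptor LXR alpha. With Acp2, a lysosomal acid phosphatase, Nr1h3 had a fold of 52.69 and 20.75 and a domain of 2085 and 1923 bp that was nearly even (0.063 and 0.034). Of the 10 innate pairs, 8 were marked, against 91.2% of all pairs. Ifit1bl2 and Ifit1, antiviral genes induced by interferon, are in the lowest CpG tertile, where 3 of 20 pairs were marked, and had a fold of 27.46 and 11.62. Their domain was 2798 and 2144 bp and leaned to Ifit1, 1925 and 1510 bp against 744 and 505 bp. Pus7l and Irak4, the kinase below Toll-like receptors, leaned to Irak4 with 1734 and 1180 bp against 636 and 522 bp. Fam3a and Ikbkg, which encodes the NEMO subunit of the IκB kinase, had a fold of 31.76 and 9.79. Park7 and Tnfrsf9, the costimulatory receptor 4-1BB, were near-even at 1958 and 1718 bp. The prefix rules also took in Tnfaip1 and Ikbip, which are named for induction by TNF or for binding an IκB kinase. Il11 with Tmem190 and Il17rb with Chdh had no peak in either replicate.

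Replication-dependent histones had 27 of 67 genes in pairs (40.3%), the highest share of these lists, against 6.78% of all coding genes. Of their 14 pairs 11 were marked, against 91.2% of all pairs. The median fold percentile of the marked ones was 36.8 and their median asymmetry 0.674, against 85.9 and 0.167 over all marked pairs. At Hist1h2ac and Hist1h2bc, which encode H2A and H2B, the fold was 20.74 and 6.66, and neither start was under a peak in either replicate. Bola1 and Hist2h2ab and Hist2h2ac and Hist2h2be share 1 joined domain of 4800 and 4702 bp, with a fold of 38.49 and 14.75. Hist1h2bq with Hist1h2ao, Hist1h2ap with Hist1h2br, and Hist1h2ba with Hist1h2aa had no peak. The Hist1h2ap and Hist1h2br span, all 237 bp, is found letter for letter in the other orientation in the 269 bp span of Hist1h2bq and Hist1h2ao, so a read lying within it matches both places and the lack of a peak there is uncertain. How repeated sequence was treated in the peak calls is not given in the sources used here.

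The 66 pairs not marked in both replicates are of several kinds. The 50 with no peak in either list had a median CpG ratio of 0.374, against 0.68 at marked pairs, and 17 were in the lowest CpG tertile, 24 in the middle and 9 in the highest. Several encode proteins known from other tissues: Col4a4 and Col4a3 encode chains of kidney basement membrane, Kirrel2 and Nphs1 include the nephrin gene of the slit diaphragm, Duox2 and Duoxa2 make hydrogen peroxide in the thyroid, and Klc3 and Ckm include muscle creatine kinase. Col4a4 and Col4a3 were the only pair of collagen genes, since the other pair matched by the prefix, Polk and Col4a3bp, concerns a ceramide carrier and was marked. In 12 of the 50 pairs (24%, 95% Wilson interval 14.3 to 37.4) another annotated start of a member was marked in both replicates. These include Trim28, a corepressor, Ccnt1, the cyclin of P-TEFb, Ostm1, and Nisch. At these 12 the window of the gene record was empty while another start of the gene carried a peak. No such share is given for unmarked single-gene promoters, so the 24% has no background here. The pairs named in this paragraph and the next were in part chosen after their values were seen.

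The 16 pairs with a peak in replicate 1 alone had a median fold of 6.54 in that list and a median width of 681 bp, against 46.7 and 2511 bp at marked pairs. Their median CpG ratio, 0.673, was close to the 0.68 of marked pairs. Sgce and Peg10 (fold 2.99) and Peg3 and Usp29 (fold 5.04) are imprinted pairs, transcribed from 1 parental copy, and their peak lay beside the starts and over neither. Hspa1a and Hspa1l, heat shock chaperone genes, had a fold of 8.78 in a peak of 615 bp. Ccdc92 and Zfp664 and Slc25a29 and Slc25a47 had the highest folds of the 16, 9.9 and 10.28.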

How the data were processed

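H3K4me3 ChIP-seq peak lists of 2 biological replicates of unstimulated macrophages were used. Per the deposited provenance texts, the authors called pseudoreplicated peaks per replicate and on both pooled, and built a replicated list, on mm10. Each peak in the deposited lists has a fold (a ratio), −log10 p and −log10 q values and a summit offset in bp. Which aligner, peak caller and thresholds the authors used is not given in the sources used here. The fold was used only within a list, also as a percentile of its peaks. Depth is unknown, so no precision from depth can be given.

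Gene starts came from GENCODE M21 on 21 chromosomes of GRCm38.p6, which is mm10, and 0 peaks ended beyond a chromosome. Sequences were read from the RefSeq FASTA of this build. Python 3.11.15, pandas 2.3.3 and numpy 2.4.6 were used. Overlap counts were tested on simulated data and checked with bedtools 2.31.1. CpG tertiles were set over the 1000 bp on either side of all protein-coding 5′ ends. Medians, counts, SDs over replicates and 95% Wilson intervals are given without tests, because there is 1 group. The members and lists were chosen with earlier results of these data known. Named pairs were the 5 highest by fold percentile, 5 widest, 5 most asymmetric with both starts covered, 5 of highest fold with the same single start covered, the first 5 unmarked in genome order, the 2 shortest and 2 longest distances, the known pairs, all pairs of the innate and macrophage lists, and up to 3 marked and 3 unmarked pairs of each other list (85 distinct pairs, of which those described are a selection; some are not reported here). Alternatives were other peak lists, a stricter peak number, distance, flank, overlap and joining limits, another set of single-gene promoters, the CpG-rich class, each replicate alone and, added after seeing the data, 1 pair per locus.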

Additional observations from a re-analysis of the deposited data

How the results depend on the processing

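Of 100 alternative values, 60 stayed within 1 SD between replicates and 40 moved by more. Only the differences from single-gene promoters could change sign, and 0 did. This SD rests on 2 replicates, each read at the promoters marked in its own list alone. It was 0.000209 for the median asymmetry but 233 bp for the median width. At the pairs marked in both replicates, the SD between replicates was 0.00221 for the asymmetry and 243 bp for the width. Very small shifts in asymmetry therefore count as moved, while shifts in width of up to 233 bp do not. The values with a replicate left out come from the same 2 replicates as the SD. They were read at promoters marked in the remaining list, which without replicate 2 are 704 pairs and 7767 single-gene promoters. At those marked in both replicates, pairs had median widths of 2511 and 2167 bp, and single-gene promoters 2015 and 1596 bp. Their median fold percentiles were 87.4 and 85.2, and 72.2 and 64.9. The ranges with a replicate left out are thus not the differences at that shared set. The share of pairs marked in both replicates (91.2%) became 93.1% with the pooled list, 93% with starts up to 300 bp or up to 500 bp apart, 71.1% with no flank, 81.4% where at least 50% of the region had to be covered and 96.1% in the highest CpG tertile. The share of single-gene promoters (39.9%) became 43.1%, 19.2%, 23.8% and 73.9% with the pooled list, no flank, 50% cover and the CpG class, and 37% where no start of any gene lay nearby. Without replicate 2 the shares were 93.4% and 43.9%, the values of replicate 1, and without replicate 1 they were 91.2% and 39.9%. The median width (2353 bp) was 1833 bp without joining. Its difference from single-gene promoters (549 bp) was 566 bp with the 15000 strongest peaks, 531 bp with starts up to 300 bp apart, 536 bp with a flank of 500 bp, 458 bp without joining, 533 bp with joining within 3 kb, 604 bp against promoters with no gene start nearby, 428 bp in the CpG class and 558 to 572 bp with a replicate left out. The median fold percentile (85.9) was 83.3 with the 15000 strongest peaks and 87.4 in the CpG class. Its difference (17.1) was 20.1 with the replicated list, 19.6 with the 15000 strongest peaks and 17.7 to 20.3 with a replicate left out. The median asymmetry (0.167) was 0.172 with the replicated and with the pooled list, 0.166 with the 15000 strongest peaks, 0.156 and 0.159 with starts up to 300 or 500 bp apart, 0.183 with overlapping 5′ ends added, 0.171 with joining within 3 kb, 0.169 with 1 pair per locus, 0.167 with either replicate left out and 0.552 without joining (0.29 in replicate 1, 0.957 in replicate 2), where a pair with a peak on each side counts as one-sided by construction. The share with both starts under 1 peak (48.4%) was 62.8% in the replicated and 62.3% in the pooled list, and 48.5% to 66.6% with a replicate left out, the higher value without replicate 2. The causes of the shifts were not tested. No paired analysis was possible because there is 1 group of samples. With 2 replicates under the same donor entry and unknown depth, an uncovered start does not show that the mark is absent.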
